A study of Drosophila melanogaster with 4 samples.

Results

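Transcripts of 35 DNA repair and damage checkpoint genes were examined in nuclei of *Drosophila melanogaster* photoreceptor (PR) neurons. The genes were taken as a given list, by symbol, and all 35 had a row among the 13929 genes of the counts table. They cover the checkpoint kinases (5 genes with a cofactor), the MRN complex (3), homologous recombination (4), end joining (4), nucleotide excision repair (7), structure-specific nucleases with the Fanconi pair (4), mismatch repair (4), and base excision with single-strand break repair (4). The current annotation lists *Lig4* as *DNAlig4*, *mus308* as *PolQ*, *mus210* as *Xpc*, *haywire* as *hay* and *Parp* as *Parp1*.

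Nuclear RNA-seq was performed at Day 30 after eclosion in 2 libraries labelled siTop3β and 2 labelled siControl. In siTop3β flies the TRiP.JF01282 hairpin against *Top3β*, which encodes a topoisomerase that acts on DNA and RNA, was expressed in PR neurons, and siControl flies expressed a hairpin against mCherry, a protein that flies lack. Flies of both genotypes also carried UAS-Dcr-2, a mutant *white* gene, UAS-GFP-Msp300KASH as the nuclear tag and rh1-GAL4 as the driver. They were males, kept under a light:dark cycle and collected at ZT 6. The Rh1 promoter is active in the outer photoreceptors R1 to R6, so hairpin and tag were confined to these cells by design, and each library pooled the tagged nuclei of many heads. The study's methods describe replicates of its high-throughput experiments in general as independent and biological, each a pool of male flies, but with more of them than the 2 per group here, and the labels do not say how these were made. The p-values measure only the spread between these libraries, which may be in part technical.

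DNA repair divides by lesion: excision pathways remove damaged bases or bulky adducts from one strand, mismatch repair corrects replication errors, and recombination or end joining rejoins broken ends. The kinases ATM and ATR sense breaks and single-stranded DNA and signal through Chk2 and Chk1 to halt the cell cycle. Adult photoreceptors are postmitotic and lack the sister chromatid that homologous recombination copies from, whereas excision repair and end joining need no replication.

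Library totals ran between 3239201 and 4267208 counts, and a level is given as CPM, the count of a gene relative to the TMM-scaled library total. A floor of 3 counts corresponds to 0.697 to 0.871 CPM. *Top3β* itself had 57 and 71 counts in siTop3β replicates 1 and 2, against 70 and 57 in siControl replicates 1 and 2. This order of replicates is kept in all pairs of values here. The log2 fold change was 0.13 (adjusted p = 0.957 in edgeR's quasi-likelihood test). Its nuclear transcript did not tell the labels apart, and within these data the groups rest on the labels alone. The paper reports by qPCR that ubiquitous RNAi against *Top3β* lowered its transcript in larvae, which are other samples than these. All 8 photoreceptor markers, *ninaE* of R1 to R6 among them, were tested and none passed. They summed to 57097 and 62517 CPM in siTop3β, against 63524 and 65379 CPM in siControl. 2 genes listed as markers of other cells were lower in siTop3β in the same test. They were *pros*, of the pigment and cone cell markers (log2 fold change -0.69, adjusted p = 0.00408), and *apolpp*, of the fat body markers (-0.61, adjusted p = 0.0230). Of the 4 pigment and cone cell markers, all tested, 2 had positive fold changes that did not pass. The 4 pigment and cone cell markers summed to 8763 and 11829 CPM in siTop3β, against 7658 and 8864 CPM in siControl, and *w*, the *white* gene itself, made up 8574 and 11661 CPM of the siTop3β sums, against 7362 and 8589 CPM in siControl. The 3 fat body markers summed to 557.5 and 639.7 CPM in siTop3β, against 888 and 932.3 CPM in siControl, nearly all from *apolpp*, and *Fbp2* was at 0 in 3 of the 4 libraries. Their part in the members' values was not tested. One library stood apart: siTop3β replicate 1 had 12922 genes with at least 1 count, against 10104 in siTop3β replicate 2 and 10479 and 10537 in the siControl libraries.

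Members of every repair pathway had transcripts in the PR nuclear preparations. Their levels were spread around the median of all protein-coding genes of the counts table, expressed or not. Markers of other cells were counted there too. The 4 markers of other neurons summed to 134.7 and 115.1 CPM in siTop3β, against 150.2 and 145.4 CPM in siControl. The 4 glial markers summed to 53.1 and 55.5 CPM in siTop3β, against 58.5 and 65.0 CPM in siControl. Which cells the members' transcripts came from was not tested. Levels were compared between genes as CPM per exonic kb. Over the siControl libraries the median member had 1.59 CPM per exonic kb, beside 1.35 over 13862 protein-coding genes. These include genes without a count, so their median is not that of expressed genes. Of the 35 members, 21 lay above that protein-coding median, 3 above its 75th percentile and 1 above its 90th. 26 members had more than 3 counts in every library, and 1, *mus312*, had none in any.

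*Parp*, the poly(ADP-ribose) polymerase that marks single-strand breaks, stood first with 91.7 and 102 CPM per exonic kb in siTop3β, against 94.4 and 96.5 in siControl. It alone held 42.6% (Wilson 95% interval 40.6 to 44.6) and 46.1% (44.2 to 48.0) of all member counts in the siTop3β libraries, against 45.4% (43.5 to 47.2) and 49.8% (47.7 to 51.9) in the siControl libraries. All members together made up 0.0713% (0.0685 to 0.0743) and 0.0648% (0.0624 to 0.0674) of the counts in siTop3β, against 0.0653% (0.0630 to 0.0678) and 0.0583% (0.0558 to 0.0608) in siControl. These intervals cover counting error only.

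Next in the siControl order came *mus210*, the XPC damage sensor of nucleotide excision repair, at 16.0 ± 3.23 CPM per exonic kb, then the ATM kinase *tefu* at 7.28 ± 0.243, the MRN subunit *nbs* at 6.02 ± 0.0492 and the recombination mediator *Brca2* at 5.07 ± 1.02 (SD, n = 2). *Parp*, *mus210*, *tefu* and *nbs* did not overlap each other in the siControl libraries. *Brca2* overlapped with members further down, *XRCC1* at 4.69 ± 0.873 and *Pms2* at 4.0 ± 0.603. Among the lowest were *mus312* at 0, the Chk2 kinase *lok* at 0.425 ± 0.0626, *Ercc1* at 0.517 ± 0.306 and the end-joining polymerase *mus308* at 0.543 ± 0.0517. *lok* and *Ercc1* had at most 4 counts in each siControl library, where their order is not resolved.

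**Figure D1:**
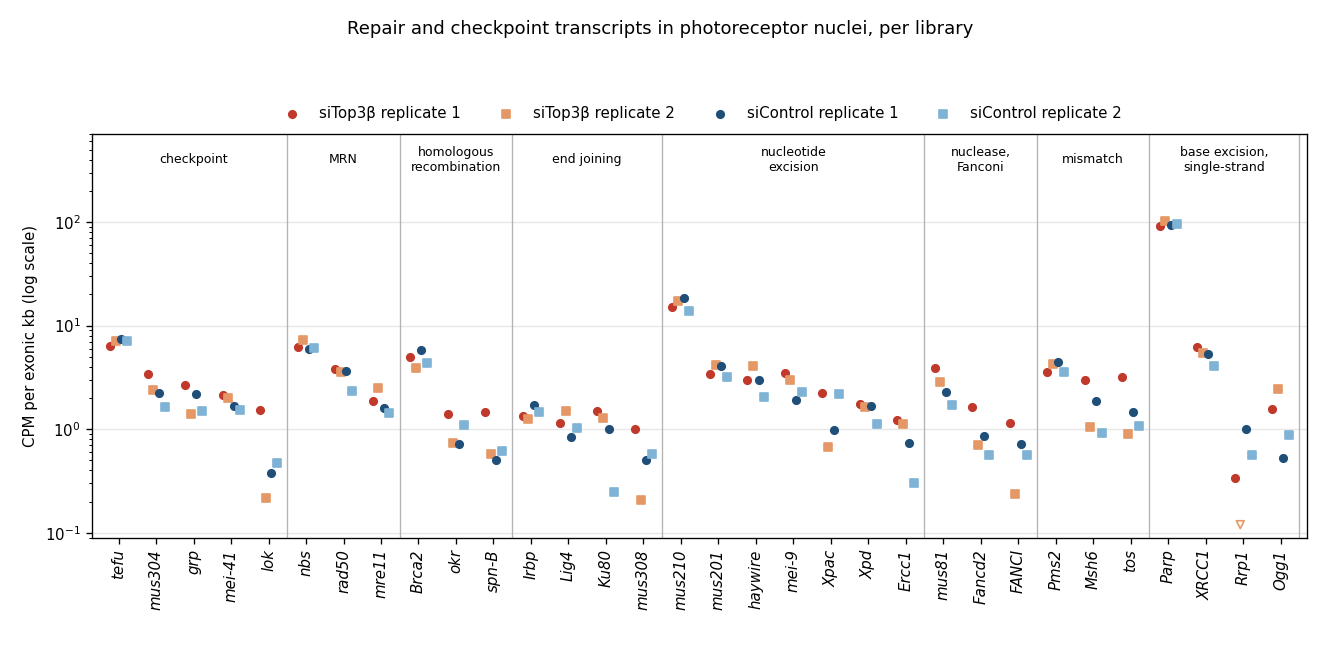
Level of the members in each library, as TMM-scaled CPM per exonic kb on a log axis, grouped by pathway and ordered by the siControl mean. Each point is 1 library, and the open triangle stands for a library at 0. *mus312*, at 0 in all 4 libraries, is not drawn, nor are the members whose values are not reported here. *Parp* sits near 100 in all 4 libraries, and most other members lie between 0.5 and 10.

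The order depends on the length used for scaling, as the members with long introns show. *Parp* (FBgn0010247) lies at 3R:3461351-3587054 (dm6, minus strand) and spans 125.7 kb with only 3.11 kb of exon, while 33 members span 1.01 to 10.03 kb and *grp* 19.9 kb. Per kb of the whole span, *mus210* ranked 1st with 11.5 CPM and *Parp* 10th with 2.36 CPM, while *grp* ranked 34th with 0.285 CPM, against 15th per exonic kb. Whether intronic reads were counted is not given in the sources used here.

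The comparison of siTop3β with siControl asked whether transcripts of any member differed in the libraries labelled siTop3β, and none passed the test. 27 members passed the filter on low counts and were tested, and 0 of these reached an adjusted p under 0.05 in edgeR's quasi-likelihood test with Benjamini-Hochberg adjustment over 7029 genes, where 1.21% of all tested genes did (58 lower and 27 higher in siTop3β). DESeq2 gave 12 members an adjusted p and also called 0. Of 13 alternative fits, 6 called 1 member each, among them the fits without siTop3β replicate 1 and without siControl replicate 2, and the others called 0. At an unadjusted p under 0.05 there was 1 member (3.70% of those tested), beside 9.09% of all tested genes. In bulk nuclei, fewer cells of a type and less RNA per cell cannot be told apart.

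Fold changes of the tested members were mostly above 0 without reaching the threshold. The log2 fold change was positive for 23 and negative for 4, that is positive for 85.2% of the tested members beside 53.5% of all tested genes. The median was 0.29 beside 0.02 over all tested genes, and single values ranged between -0.30 for *Irbp* and 1.08 for *Ku80*. This contrast was smaller in fits that kept genes with low counts. Without the filter the median was 0.28 over 34 members, beside 0.21 over all genes, of which 65.49% were positive. In the DESeq2 fit it was 0.27 over 34 members, beside 0.19 over all genes, of which 63.35% were positive. Both siTop3β libraries lay above both siControl libraries for 10 members, among them *mei-41*, *mus304*, *mre11*, *nbs*, *Ku80*, *Lig4*, *mei-9*, *mus81* and *XRCC1*, where 19.6% of all tested genes had this order. Both lay below for 2, *tefu* and *Irbp*, where 19.0% did, and the groups overlapped for the other 15.

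The precision of the fold changes differed between members with their counts. The 95% interval of the log2 fold change stayed within a 2-fold change either way (-1 to 1) for 10 members: *tefu*, *mei-41*, *rad50*, *nbs*, *Brca2*, *mus201*, *mus210*, *Pms2*, *Parp* and *XRCC1*. For the remaining 17 it reached past a 2-fold change in at least 1 direction. The interval's arms measured 0.276 for *Parp*, the best counted member, and 1.57 for *Ku80*, with 12 and 11 counts in siTop3β and 10 and 2 in siControl.

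**Figure D2:**
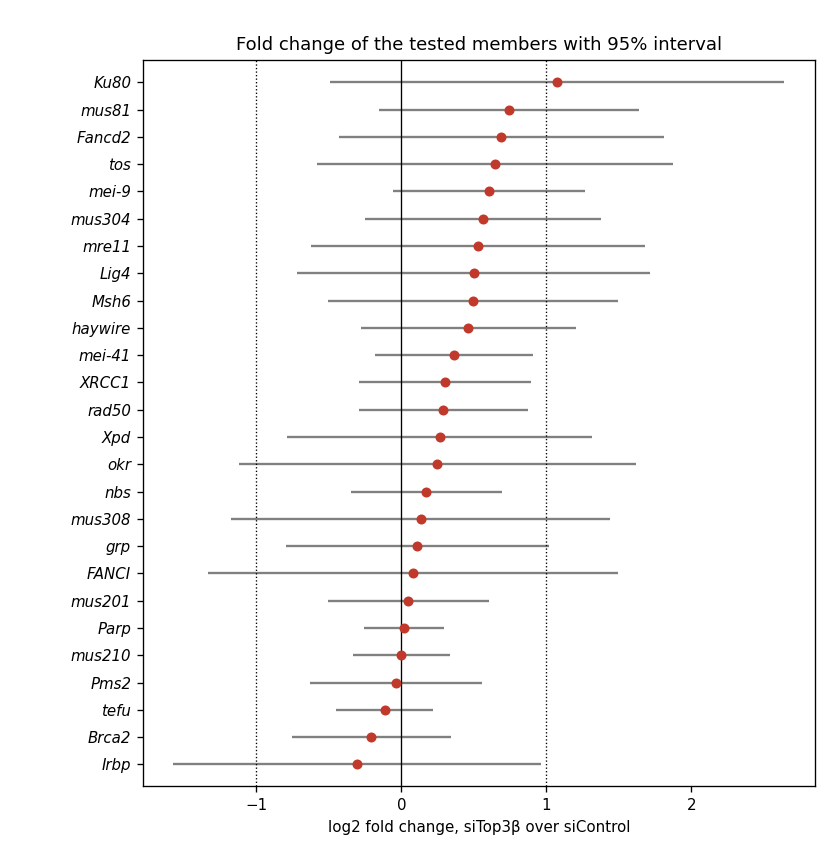
Log2 fold change, siTop3β over siControl, of 26 tested members (points) with the 95% interval from edgeR's quasi-likelihood fit (bars); dotted lines mark a 2-fold change either way. The intervals of these members all include 0, and that of *mei-9*, from -0.06 to 1.27, comes nearest to leaving it out.

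The checkpoint kinases were led by *tefu*. This ATM kinase (FBgn0045035), at 3R:15232212-15242236 (minus strand), had 53.7 and 59.5 CPM in siTop3β, against 62.7 and 59.8 CPM in siControl. Both siTop3β values lay below both siControl values, by a margin within the error of the fit (log2 fold change -0.11, SE 0.16, adjusted p = 0.931 in edgeR). The ATR kinase *mei-41* had 16.8 and 15.8 CPM in siTop3β, against 13.2 and 12.0 CPM in siControl. Here the siTop3β values lay above, with a log2 fold change of 0.36 (SE 0.27) that did not pass (adjusted p = 0.776, edgeR). Per exonic kb, *tefu* exceeded *mei-41* 2.99 and 3.55 times in siTop3β, against 4.45 and 4.67 times in siControl. *mus304*, the ATRIP partner that brings ATR to single-stranded DNA, had 33 and 25 counts in siTop3β and 27 and 16 in siControl (log2 fold change 0.56, SE 0.40).

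Of the kinases that ATR and ATM act through, the Chk1 kinase *grp* had 8.13 and 4.27 CPM in siTop3β, against 6.73 and 4.58 CPM in siControl. The groups overlapped and the log2 fold change was 0.11 (SE 0.44). 12.2% of its exonic bases are shared with other genes, 7.3% on the same strand, so a part of these counts is uncertain. The Chk2 kinase *lok* did not pass the filter, with 13 and 2 counts in siTop3β and 4 and 4 in siControl. Its value rested on siTop3β replicate 1, the library with the most detected genes.

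The MRN complex holds and trims broken ends. Its subunit *nbs* had 16.3 and 19.0 CPM in siTop3β, against 15.6 and 15.7 CPM in siControl (log2 fold change 0.17, SE 0.25). *rad50* had 15.4 and 14.7 CPM in siTop3β, against 14.9 and 9.44 CPM in siControl (0.29, SE 0.28). *mre11*, the nuclease, had 3.77 and 5.07 CPM in siTop3β, against 3.25 and 2.86 CPM in siControl (0.53, SE 0.56). All 3 fold changes were positive and none exceeded its error by enough to pass. The 3 subunits were not level with each other: per exonic kb, *nbs* exceeded *mre11* 3.34 and 2.89 times in siTop3β, against 3.71 and 4.26 times in siControl.

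Of the homologous recombination genes, *okr* and *spn-B* lay below the protein-coding median and *Brca2* above it. *Brca2* had 16.3 and 12.8 CPM in siTop3β, against 19.0 and 14.3 CPM in siControl, and the groups overlapped (log2 fold change -0.21, SE 0.27). *spn-B*, a recombination cofactor best known from meiosis, had 7 and 3 counts in siTop3β, against 3 and 3 in siControl, and was not tested. *okr*, the Rad54 translocase, had 14 and 8 counts in siTop3β, against 9 and 11 in siControl (0.25, SE 0.67). Of its exonic bases, 16.7% are shared with a gene on the opposite strand.

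End joining was represented by low but countable transcripts. The Ku subunits bind free ends as a pair: *Ku80* had 12 and 11 counts in siTop3β, against 10 and 2 in siControl, while *Irbp*, the Ku70 subunit, had 10 and 10 in siTop3β, against 16 and 11 in siControl. Their fold changes pointed in opposite directions (log2 1.08, SE 0.76, for *Ku80* and -0.30, SE 0.62, for *Irbp*), both within error. The value of *Ku80* turned on the siControl libraries and was 0.44 without siControl replicate 2 and 2.39 without siControl replicate 1. *Lig4*, the ligase that seals the joined ends, had 12 and 17 counts in siTop3β, against 11 and 11 in siControl (0.50, SE 0.60). *mus308*, the polymerase theta of the alternative route, had 22 and 5 counts in siTop3β, against 14 and 13 in siControl (0.13, SE 0.64), so its siTop3β libraries enclosed the siControl ones.

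Nucleotide excision repair had the highest summed level after the group of *Parp*, mostly from *mus210*. The sums were 114.6 and 127.4 CPM in siTop3β, against 126.1 and 98.7 CPM in siControl. Its median member had 2.12 CPM per exonic kb in siControl, below 2.98 for the MRN complex. *mus210* had 72.3 and 83.0 CPM in siTop3β, against 88.5 and 66.4 CPM in siControl, and the siControl libraries enclosed the siTop3β ones (log2 fold change 0.00, SE 0.16, 95% interval -0.33 to 0.33). The XPG endonuclease *mus201* had 13.4 and 16.6 CPM in siTop3β, against 16.3 and 12.6 CPM in siControl (0.05, SE 0.27). The XPF endonuclease *mei-9* had 12.5 and 10.7 CPM in siTop3β, against 6.97 and 8.30 CPM in siControl. Its groups did not overlap, and its log2 fold change of 0.60 (SE 0.32, unadjusted p = 0.0720, adjusted p = 0.616, edgeR) did not pass. 10.6% of its exonic bases are shared with a gene on the same strand.

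Its partner *Ercc1* had 4 and 4 counts in siTop3β, against 3 and 1 in siControl, too few to test. The TFIIH helicases *haywire* (XPB) and *Xpd* open DNA around the lesion and also serve in transcription initiation. *haywire* had 27 and 40 counts in siTop3β, against 34 and 19 in siControl (log2 fold change 0.46, SE 0.36), and *Xpd* had 17 and 17 in siTop3β, against 20 and 11 in siControl (0.27, SE 0.51). Both overlapped between groups. *Xpac*, the XPA scaffold, had 9 and 3 counts in siTop3β, against 5 and 9 in siControl, and was not tested.

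Among the structure-specific nucleases, *mus81* had 29 and 23 counts in siTop3β, against 21 and 13 in siControl, without overlap (log2 fold change 0.74, SE 0.44, adjusted p = 0.684, edgeR). *Fancd2* and *FANCI* form the pair that clamps DNA at interstrand crosslinks. *Fancd2* had 26 and 12 counts in siTop3β, against 17 and 9 in siControl (0.69, SE 0.55). *FANCI* had 18 and 4 counts in siTop3β, against 14 and 9 in siControl (0.08, SE 0.69). Both overlapped between groups and had their highest count in siTop3β replicate 1.

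*mus312* (FBgn0002909), the SLX4 scaffold at 3L:7329132-7333471 (plus strand), had 0 counts in all 4 libraries, and this value cannot be read as lack of transcription. Every exonic base of *mus312* is shared with *CG42307* on the same strand, which also had 0 counts. Of 322 genes whose exonic bases are all shared on the same strand, 319 (99.1%) had 0 counts in every library, beside 371 of 9267 genes (4.0%) that share none. Among 70 genes fully shared on the opposite strand only, 3 (4.3%) had 0 counts throughout.

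In base excision and single-strand break repair, *Parp* had 285.3 and 316.1 CPM in siTop3β, against 293.7 and 300.2 CPM in siControl. The siTop3β libraries enclosed the siControl ones, and the log2 fold change was 0.02 (SE 0.13, 95% interval -0.26 to 0.29, edgeR). *Parp* is among 76 tested genes with a span over 100 kb, of which 8 were lower and 0 higher in siTop3β at adjusted p under 0.05, with a median log2 fold change of -0.21 over these 76. The scaffold *XRCC1* had 14.5 and 12.6 CPM in siTop3β, against 12.3 and 9.44 CPM in siControl (0.30, SE 0.29).

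*Ogg1* and *Rrp1*, the members that act early in base excision, were near the floor. *Ogg1*, the glycosylase for oxidised guanine, had 7 and 12 counts in siTop3β, against 3 and 4 in siControl. *Rrp1*, the apurinic endonuclease that cuts the strand next, had 3 and 0 counts in siTop3β, against 11 and 5 in siControl. In neither did the groups overlap, and they pointed in opposite directions. In the edgeR fit without a filter the unadjusted p was 0.164 for *Ogg1* and 0.127 for *Rrp1*. Low counts did not hold for every such enzyme. *Thd1*, a glycosylase that is not a member, had 728.7 and 783.4 CPM in siTop3β, against 738.4 and 726 CPM in siControl.

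In mismatch repair, *Msh6*, *Pms2* and *tos* were counted in every library and overlapped between the groups. *Msh6*, a mismatch recognition subunit, had 42 and 16 counts in siTop3β, against 33 and 13 in siControl. *Pms2*, of the MutL complex that acts next, had 37 and 49 counts in siTop3β, against 58 and 38 in siControl. *tos*, the Exo1 exonuclease, had 26 and 8 counts in siTop3β, against 15 and 9 in siControl. The log2 fold changes were 0.49 (SE 0.48) for *Msh6*, -0.04 (SE 0.29) for *Pms2* and 0.65 (SE 0.60) for *tos*.

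The predominance of positive fold changes moved with single libraries. siTop3β replicate 1 was the highest of the 4 libraries for 15 of the 27 tested members (55.6%), beside 28.8% of all tested genes, and siControl replicate 2 was the highest for 0 members, beside 24.1% of all tested genes. Without siTop3β replicate 1, 17 of the 27 were positive with a median of 0.19, beside -0.01 over all tested genes. Without siControl replicate 2, 18 were positive with a median of 0.16, beside 0.04 over all tested genes. Without siTop3β replicate 2, 20 were positive with a median of 0.36, beside 0.05, and without siControl replicate 1, 22 were positive with a median of 0.41, beside 0.06. Taking out siTop3β replicate 1 turned the sign for *grp*, *okr*, *mus308*, *Fancd2*, *FANCI*, *Msh6*, *tos* and *Pms2*.

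**Figure D3:**
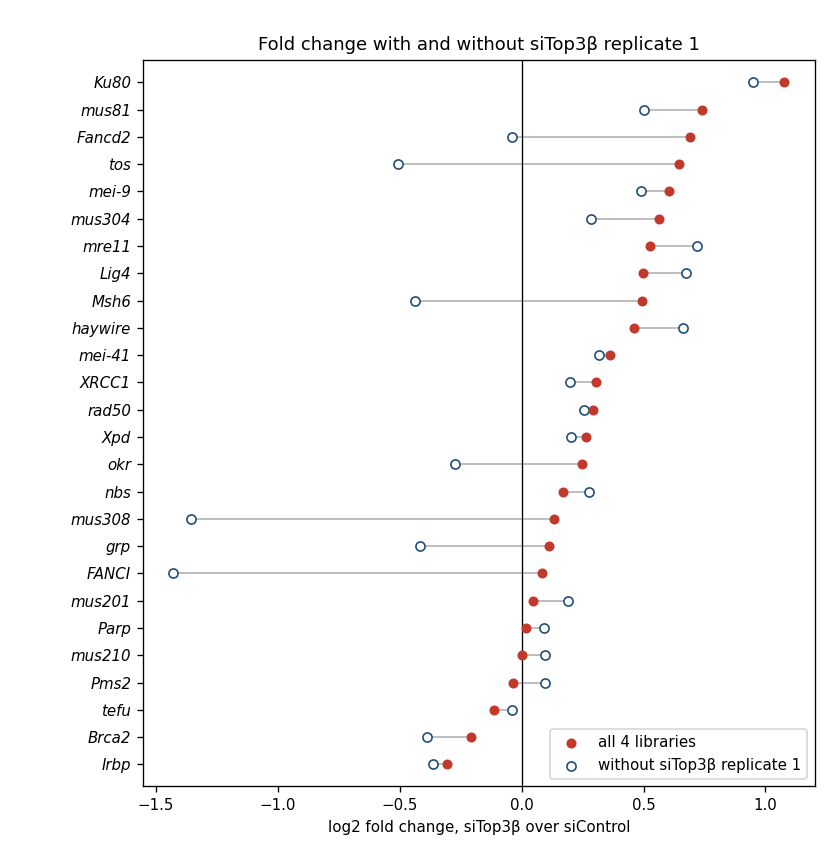
Log2 fold change, siTop3β over siControl, of 26 tested members with all 4 libraries (filled) and without siTop3β replicate 1 (open), joined by a line. *FANCI* and *mus308* move furthest, to -1.43 and -1.36.

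Replication and division genes were counted beside the members, since many repair genes are also used in S phase. Of 22 such genes, 15 had at most 3 counts in each siControl library, and the summed counts of all 22 were 328 and 154 in siTop3β, against 137 and 108 in siControl. siTop3β replicate 1 held the most here too: *CycA*, the mitotic cyclin, had 17 and 1 counts in siTop3β, against 0 and 0 in siControl. 4 of the 22 were tested and 0 passed, the smallest adjusted p being 0.115 (unadjusted p = 0.00237) for the mitotic checkpoint kinase *BubR1* in edgeR's test. The part of this library's wider gene detection in the members' fold changes was not tested.

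A wider list of 47 repair genes that are not members was counted in the same way. 45 had a row in the table and 30 were tested, of which 0 passed in edgeR's test at adjusted p under 0.05. At an unadjusted p under 0.05 there was 1, the Fanconi helicase *Fancm* (unadjusted p = 0.0328, adjusted p = 0.465, edgeR). 27 of the 30 fold changes were positive, with a median log2 value of 0.22, beside 53.5% and 0.02 over all tested genes. Without siTop3β replicate 1, 23 of the 30 were positive with a median of 0.28. With each other library left out, between 21 and 27 were positive, with medians between 0.13 and 0.34. Of 8 genes known to respond to DNA damage, 2 were tested and 1 passed: *Xrp1*, a transcription factor induced by radiation in flies, had 247.3 and 301.4 CPM in siTop3β, against 432.8 and 414.1 CPM in siControl. It was lower in both siTop3β libraries than in either siControl library (log2 fold change -0.63, SE 0.14, adjusted p = 0.0150, edgeR). The proapoptotic gene *hid*, the other tested gene of this list, had 31 and 17 counts in siTop3β, against 33 and 18 in siControl (0.06, adjusted p = 0.990, edgeR). *rpr* and *skl*, cell death genes of the same p53 response, were not tested. *rpr* had 2 and 0 counts in siTop3β, against 0 and 0 in siControl, and *skl* 8 and 0, against 2 and 2. The untested genes of this list all had their highest count in siTop3β replicate 1.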

How the data were processed

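Nuclear RNA of tagged PR neurons was sequenced in 2 siTop3β and 2 siControl libraries. Per the labels, read trimming used Trimmomatic, alignment to the dm6 genome used STAR, and SAMtools handled the alignments; the authors deposited unnormalized whole-number counts for each FlyBase gene. The counting tool, its annotation and its use of strand and introns are not given in the sources used here, so genes that overlap are uncertain.

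Counts were fitted in edgeR (version 4.0.16, under R 4.3.3) after TMM scaling, filterByExpr (7029 of 13929 genes) and the robust quasi-likelihood test on group alone, with Benjamini-Hochberg adjustment over all tested genes and a threshold of 0.05. Standard errors came from the F statistic. CPM used TMM-scaled totals. Exonic lengths, spans and coordinates came from Ensembl release 115, which held 13866 of the genes. DESeq2 1.42.0, other scalings and filters, a replicate block and leaving out each library served as alternatives. The test was tried on simulated data in which 200 genes were changed and every gene had the same spread. It called 8 of the 200 at a 1.5-fold change, 110 at 2-fold and 168 at 3-fold. False calls numbered 0, 3 and 7.

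Members with the 5 highest and 5 lowest levels, those with an unadjusted p under 0.05 and the checkpoint kinases were to be given in full, and every other member by counts; the values of 2 members that this rule covers are not reported here, though counts and medians over the members include them. The members and lists were chosen with earlier results of these data known, and the genes named that are neither members nor *Top3β* were chosen after their values were seen. Replicates differed beyond sampling noise (chi-square per degree of freedom 5.60 for siTop3β and 4.12 for siControl).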

Additional observations from a re-analysis of the deposited data

How the results depend on the processing

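The number of members called was 0, and it was 1 with DESeq2 size factors, with upper quartile factors, with at least 10 counts in every library, at adjusted p under 0.1 and in a crossed replicate block chosen after seeing the data. It ranged from 0 to 1 when single libraries were left out. It stayed 0 with total counts only, without a filter, in the non-robust fit and in the DESeq2 Wald test. All genes called numbered 85, and 138 with at least 10 counts in every library, 51 in DESeq2, 134 at adjusted p under 0.1, 211 in the crossed block and between 52 (without siControl replicate 1) and 424 (without siTop3β replicate 2) when single libraries were left out. With the replicate number as a block, 60 genes and 0 members were called. Same-numbered libraries deviated against each other (correlation -0.12), nothing in the labels pairs them, and the block changed no call of a member.

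Log2 fold changes near 0 changed sign in some fits. With the replicate block *mus308* was -0.039 and *FANCI* -0.070, and in the crossed block they were -0.062 and -0.095. *mus210* was -0.0064 with DESeq2 size factors, -0.037 without a filter and -0.051 in DESeq2. *Parp* was -0.019 without a filter and -0.036 in DESeq2, *mus201* was -0.0017 in DESeq2 and *Pms2* was 0.015 with upper quartile factors. The cause was not tested. When single libraries were left out, values spanned -0.42 to 0.46 for *grp*, -0.0026 to 0.64 for *rad50*, -0.27 to 0.60 for *okr*, -1.36 to 0.83 for *mus308*, -0.16 to 0.23 for *mus201*, -0.20 to 0.20 for *mus210*, -0.041 to 1.14 for *Fancd2*, -1.43 to 0.79 for *FANCI*, -0.44 to 1.09 for *Msh6*, -0.23 to 0.11 for *Pms2*, -0.51 to 1.25 for *tos* and -0.098 to 0.091 for *Parp*. A lone library was then assumed to vary like the other group. A planned count of promoter motifs was not run. At these counts and this replicate spread, the 95% intervals of 17 members reached past a 2-fold change.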
